A study of Mus musculus with 19 samples.

Results

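The genes described here were 3 tissue inhibitors of metalloproteinases (Timp1, Timp2 and Timp3) and 6 matrix metalloproteinases (Mmp2, Mmp3, Mmp10, Mmp13, Mmp14 and Mmp19), taken by name from the 55487 genes of the count table. They were followed in hepatic stellate cells (HSCs), the vitamin A-storing cells of the liver that turn into matrix-producing myofibroblasts after injury or on plastic. Healthy, untreated male Balb/c mice aged 23 to 24 weeks were the source, and the vitamin A fluorescence of the cells under ultraviolet light served for sorting. Bulk RNASeq was done on cells taken without culture (0 h, 2 samples) and after 3, 6, 12, 18 and 96 h (3 samples each) or 24 h (2 samples) on collagen-coated plates in medium with 10% serum, renewed at 3 and 24 h. All groups therefore share strain, sex and sort. The cultured groups also share plates and medium and differ in time in culture. They differ as well in the medium renewals they had been through, which cannot be told apart from time. The 0 h cells were not cultured, so plating, medium and time cannot be told apart in comparisons with them. Each sample stands for 2 technical repeats. The labels name 2 isolation dates: samples numbered 1 and 3 come from one date and those numbered 2 from the other, 0 h has replicates 2 and 3, and 24 h has replicates 1 and 2.

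Matrix metalloproteinases are zinc-dependent endopeptidases, made as inactive proforms, that cut collagens and other matrix proteins. TIMPs block them by binding the active site. The balance between both families sets how fast liver scar matrix is removed, and activated HSCs are a known source of each. Mmp13 is the main interstitial collagenase of rodents, Mmp3 and Mmp10 are the stromelysins, Mmp2 is a gelatinase, Mmp14 is a membrane-anchored collagenase that also activates pro-Mmp2 with Timp2 as its adaptor, and Mmp19 is a less studied secreted member. Timp1 is the inhibitor most often tied to liver fibrosis, and Timp3 is held in the matrix and also inhibits several ADAM proteases.

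Mmp3, Mmp10 and Mmp13 lie on mouse chromosome 9 (GRCm38, GENCODE M21), all on the plus strand, at 7445822 to 7455975, 7502352 to 7510240 and 7272514 to 7283331. They belong to a cluster of 10 Mmp genes within 427.1 kb, of which 6 had no count in any sample and Mmp12 had 447 counts in 9 samples. Promoters from RefSeq (GRCm38.p6; 250 bases before to 50 bases after the annotated start) were found for 7 of the 9 genes, not for Mmp2 and Mmp19. The 3 genes of the cluster are shown because they each hold an AP-1 motif, TGACTCA or TGAGTCA, and a TATA box, TATAAA. Mmp14, the remaining protease with a promoter found, is shown beside them. Each line gives the 150 bases before the start, 5′ to 3′ on the gene's strand, with the AP-1 motif and the TATA box in capitals.
Mmp13 (chr9:7272364-7272513): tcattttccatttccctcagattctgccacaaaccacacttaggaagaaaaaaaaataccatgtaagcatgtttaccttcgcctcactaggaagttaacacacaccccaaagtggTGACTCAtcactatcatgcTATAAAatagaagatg
Mmp3 (chr9:7445672-7445821): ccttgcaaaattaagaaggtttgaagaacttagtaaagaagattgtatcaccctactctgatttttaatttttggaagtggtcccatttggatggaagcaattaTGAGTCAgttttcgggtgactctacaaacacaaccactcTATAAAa
Mmp10 (chr9:7502192-7502341): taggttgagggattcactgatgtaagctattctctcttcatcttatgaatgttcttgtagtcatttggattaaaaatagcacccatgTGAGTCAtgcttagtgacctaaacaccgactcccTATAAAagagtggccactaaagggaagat
Mmp14 (chr14:54431448-54431597): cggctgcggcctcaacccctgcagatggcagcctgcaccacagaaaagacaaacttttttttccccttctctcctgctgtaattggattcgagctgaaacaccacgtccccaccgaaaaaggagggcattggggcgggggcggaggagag

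The AP-1 motif began 35 bases before the start in Mmp13, 46 in Mmp3 and 63 in Mmp10, and the letters TATAAA followed it at 16, 7 and 29 bases before the start. These distances rest on the annotated start, which was not checked, and whether the letters act as a TATA box was not tested. Of the 32851 RefSeq promoters of the same length, 5.2% held the AP-1 motif (both strands; its spellings are each other's reverse complement), 8.32% held TATAAA on the gene's strand and 0.624% held both. No match to either was found in these windows of Timp1, Timp2, Timp3 and Mmp14. An Ets motif (AGGAAG or CTTCCT) was matched in 5 of the 7, Timp2 and Mmp10 being without it, against 35.4% of all promoters. A match describes letters in the window and is not evidence of binding, and its relation to the levels in culture was not tested.

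Libraries held 2073171 to 7690892 counts, and 3 counts correspond to 0.39 to 1.45 counts per 1000000 (CPM). Levels are CPM scaled by the trimmed mean of M-values (TMM), which sets each library against the others. In 3′-end libraries a transcript is expected to yield about 1 tag whatever its length, which was not tested here. Sums and ratios over genes rest on this. The counts were uneven from sample to sample: where the highest of 3 samples of a time had at least 100 but under 300 counts, another sample of that time was at 0 in 16.7% of 16900 cases over all genes, against 2.14% of 20190 cases at 300 counts or more. Among the 9 genes this happened in 5 combinations of gene and time, named below, so a single 0 in them is weak evidence of absence. Summed stellate markers (12 genes) read 32020 to 37346 CPM at 0 h and 2161 to 2240 CPM at 24 h, hepatocyte markers (10 genes) 3551 to 7748 CPM at 0 h and 25.4 to 81.7 CPM at 96 h. Kupffer cell markers (10 genes; Marco at 0 counts at 0 h) read 470 to 570 CPM at 0 h and 23.3 to 46.2 CPM at 96 h, and sinusoidal endothelial markers (10 genes; Lyve1 at 0 counts at 0 h) 777 to 1139 CPM at 0 h, 920 to 2980 CPM at 3 h and 13.1 to 231 CPM at 96 h. The summed cholangiocyte, granulocyte and lymphocyte, and portal fibroblast and mesothelial lists were at most 1.39, 8.29 and 13.3 CPM in any sample. The part of other liver cells in the values at 0 h was not tested, and in bulk samples fewer cells of a type and less RNA per cell cannot be told apart.

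To determine which genes differed over the whole course, the 7 times were compared in a single test per gene (edgeR quasi-likelihood F test, Benjamini-Hochberg adjusted p below 0.1). Of the 9 genes, 8 passed, where 27.4% of the 15138 genes tested did. The 9 genes were chosen with earlier results of these data known, so the 2 shares describe them and are no test of the list. Timp2 ranked 51 among all genes tested (adjusted p = 9.68e-08), followed by Mmp13, Mmp10, Mmp3, Timp3, Mmp14 and Timp1 (adjusted p between 2.65e-05 and 0.0288). Mmp2 missed the threshold (adjusted p = 0.246). The call of Timp1 was lost without replicate 3 of 96 h (adjusted p = 0.149). That of Mmp19 (adjusted p = 0.0847) rested on 2 samples with counts and was lost with the replicate number as a block (adjusted p = 0.189).

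**Figure D1:**
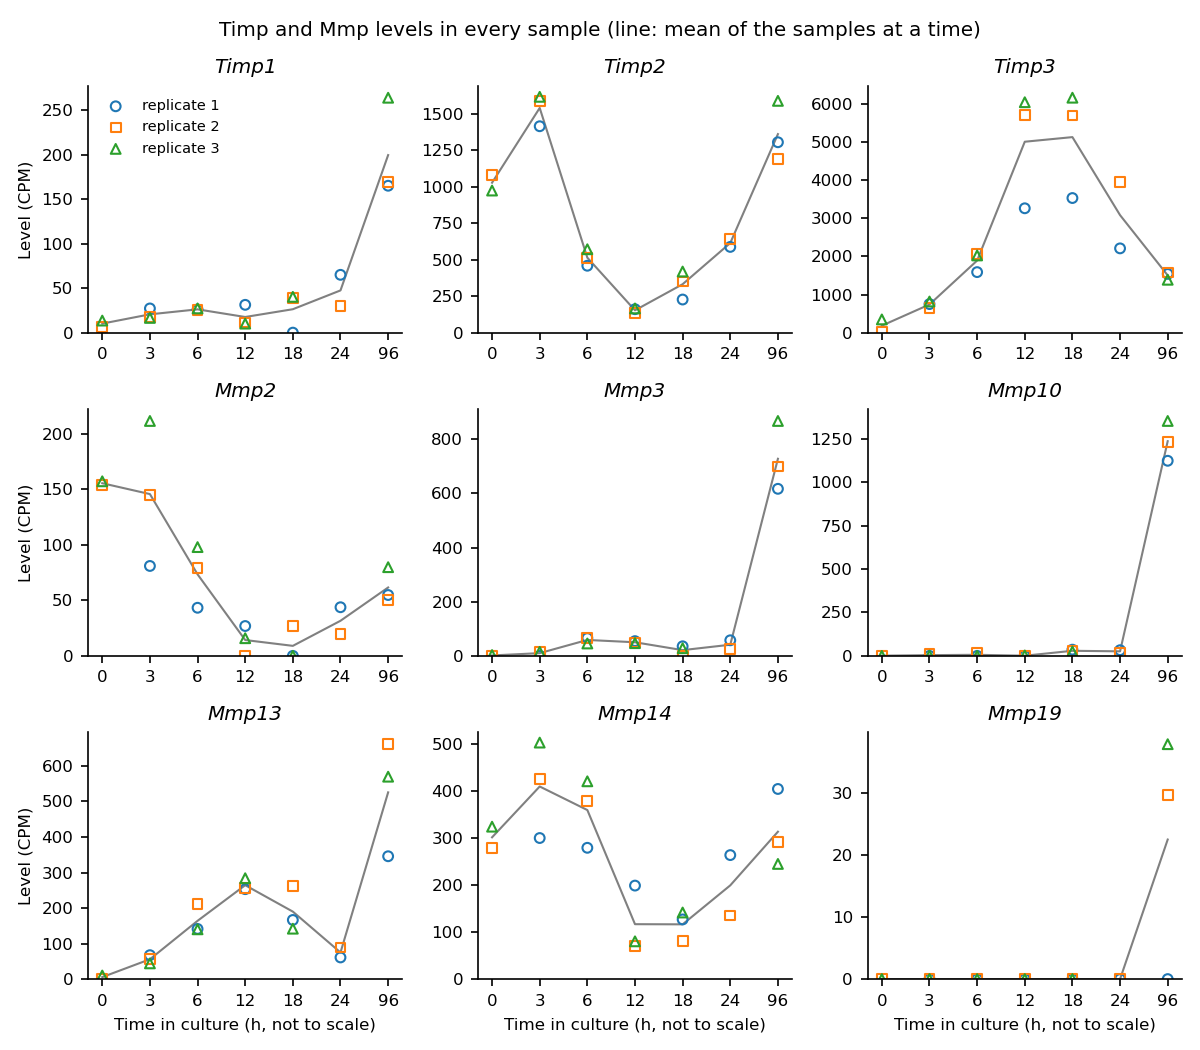
Level in TMM-scaled CPM (vertical axes, each with its own linear scale from 0) of the 9 genes in each of the 19 samples at each time in culture (horizontal axes, hours, not to scale). Symbols are the replicate numbers and the line joins the means, showing the rise of Timp3 to a mean of 5128 CPM at 18 h, the dip of Timp2 to 153 CPM at 12 h and the high 96 h levels of Mmp3, Mmp10 and Mmp13.

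Each culture time was then set against freshly isolated HSCs. A gene was called where its adjusted p was below 0.1 and its level differed by more than 2-fold. These 6 comparisons share the same 2 samples at 0 h and are not independent. At 3 h, 1 of the 9 genes was higher (Mmp13), where 4.19% of all genes were. At 6 h, 3 were higher (Timp3, Mmp3 and Mmp13; 6.98% of all genes higher) and none was lower (4.35% lower). At 12 h the same 3 were higher (8.6%), and Timp2 and Mmp14 were lower (9.1%). At 18 h, Timp3 and Mmp13 were higher (7.64%) and Timp2 and Mmp14 again lower (8.21%). At 24 h, Timp3 and Mmp13 were higher (5.65%) and none was lower (3.86%), and at 96 h, 5 were higher (Timp1, Timp3, Mmp3, Mmp10 and Mmp13; 5.83%) and none lower (5.03%). The median log2 fold change of the 9 genes was 1.03, 1.38, 0, 1.39, 2.24 and 4.31 at these times in order, beside 0 over all genes tested from 3 to 24 h and 0.07 at 96 h. With the genes chosen knowing earlier results of these data, such counts and medians do not show that the family stands out. Mmp13 was thus called at all 6 times and Timp3 at 5, while Timp2 and Mmp14 were called lower at 12 and 18 h and at no other time.

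**Figure D2:**
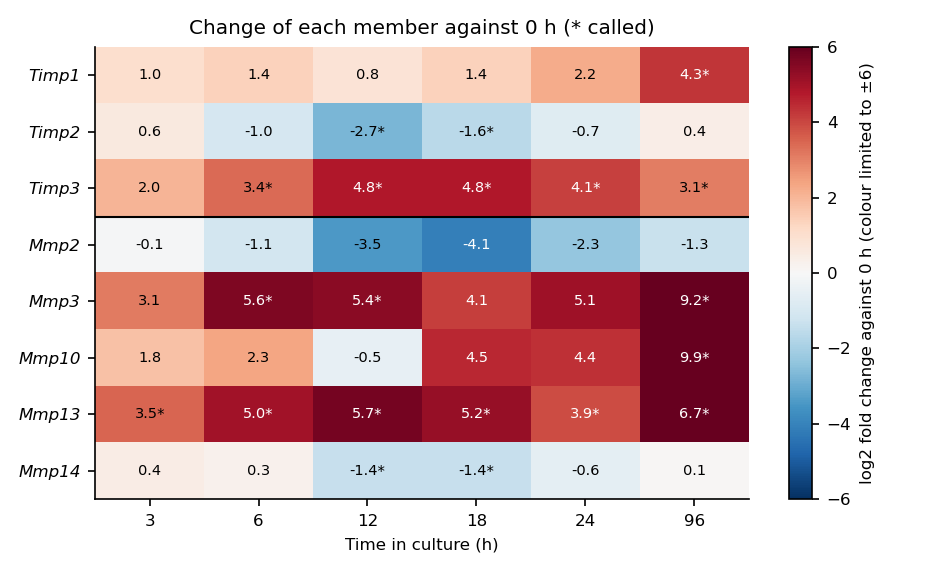
Fitted log2 fold change against 0 h of 8 genes (rows; Mmp19 is left out since it had no counts before 96 h) at the 6 culture times (columns, hours), printed in each cell and coloured on a scale limited to 6 in either direction. Asterisks mark the called changes, with Mmp13 called in every column.

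Between successive times in culture, the same rule called Mmp13 higher (2.5% of all genes) and Timp2 lower (1.99%) from 3 to 6 h, and Timp2 and Mmp14 lower from 6 to 12 h (1.42%). It called Timp2 higher from 12 to 18 h (0.0727%), and Timp2 and Mmp13 higher from 24 to 96 h (1.37%). From 18 to 24 h none of the 9 was called by edgeR or by DESeq2 (0.0396% of all genes by edgeR). Of the 9 genes, 2 had an unadjusted p below 0.05, as did 1027 of the 15138 genes tested.

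Among the inhibitors, Timp3 had the highest level in culture. It read 18.6 and 346 CPM in the 2 samples at 0 h, then 651, 749 and 816 CPM at 3 h, 1587, 2024 and 2060 CPM at 6 h and 3261, 5717 and 6043 CPM at 12 h. Samples at 18 h were at 3530, 5692 and 6162 CPM, those at 24 h at 2210 and 3954 CPM, and those at 96 h at 1387, 1540 and 1578 CPM. Every cultured sample lay above both samples at 0 h, and the 96 h samples lay below all samples of 6 to 24 h. On the log2 scale its fold change was 3.38 ± 0.76 (SE) at 6 h (adjusted p = 0.00866), 4.79 ± 0.82 at 12 h (adjusted p = 0.000728), 4.82 ± 0.82 at 18 h (adjusted p = 0.000785) and 3.05 ± 0.75 at 96 h (adjusted p = 0.0159). At 3 h it was 2.03 ± 0.71 and missed the threshold (adjusted p = 0.151). With only the times compared fitted, Timp3 was not called at 6, 24 and 96 h (adjusted p = 0.145, 0.164 and 0.15). The size depended on which sample stood for 0 h. Without replicate 3 of 0 h it was 6.64, 8.05, 8.06, 7.38 and 6.33 on the log2 scale for the 5 times from 6 h on, and without replicate 2 it was 2.44, 3.85, 3.83, 3.12 and 2.11, all of them called. At 3 h it was 5.31 and called (adjusted p = 2.52e-05) without replicate 3 of 0 h. Timp3 lies on chromosome 10 at 86300372 to 86349506 and overlaps Syn3 on the other strand, which had 1962 counts in all samples, against 272224 for Timp3.

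Timp2, the inhibitor that also bridges Mmp14 and pro-Mmp2, moved the other way from Timp3 between 3 and 12 h. It had 975 and 1082 CPM at 0 h and 1416, 1591 and 1618 CPM at 3 h, then 459, 512 and 572 CPM at 6 h and 133, 161 and 166 CPM at 12 h. It read 227, 350 and 419 CPM at 18 h, 588 and 641 CPM at 24 h and 1190, 1306 and 1590 CPM at 96 h. The samples of 6, 12, 18 and 24 h all lay below both samples at 0 h, and those of 3 and 96 h all lay above them. The log2 fold change was -2.75 ± 0.21 at 12 h (adjusted p = 4.8e-07) and -1.63 ± 0.21 at 18 h (adjusted p = 5.36e-05). At 6 h it was -0.9999 ± 0.21 (adjusted p = 0.00529), a hair short of the fold threshold, which it passed when the time was fitted with the isolation date, without the low-count filter, on thinned counts or with DESeq2. At 3 and 96 h the differences of 0.58 ± 0.22 and 0.41 ± 0.21 did not pass (adjusted p = 0.182 and 0.294).

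Timp2 also changed most often between successive times. It fell by 1.58 ± 0.19 on the log2 scale from 3 to 6 h (adjusted p = 0.000342) and fell by 1.75 ± 0.20 from 6 to 12 h (adjusted p = 0.000169), then rose by 1.12 ± 0.19 from 12 to 18 h (adjusted p = 0.0226) and by 1.15 ± 0.22 from 24 to 96 h (adjusted p = 0.00956). The rise from 12 to 18 h was lost without replicate 2 of 12 h (adjusted p = 0.146), fell to 0.92 without replicate 3 of 18 h, under the fold threshold, and was lost when only these times were fitted (adjusted p = 0.298). The rise from 24 to 96 h was lost without either 24 h sample (adjusted p = 0.131 without replicate 1 and 0.137 without replicate 2).

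Timp1, the inhibitor classically followed in fibrotic liver, was the least abundant of the 3 at every time. It had 6.77 and 13.6 CPM at 0 h (27 counts in each sample), 16.6 to 27.2 CPM at 3 h, 25.3 to 27.2 CPM at 6 h and 10.1 to 31.3 CPM at 12 h. At 18 h, 1 sample was at 0 counts and the others at 38.8 and 40.2 CPM (221 and 216 counts). It reached 29.95 and 65.01 CPM at 24 h and 165, 170 and 264 CPM at 96 h. All samples of 96 h lay above every earlier sample. Its log2 fold change at 96 h was 4.31 ± 1.30 (adjusted p = 0.0505), and the call was lost without either sample of 0 h and without replicate 3 of 96 h, with log2 fold changes of 4.88, 3.87 and 4.05. At 24 h the value of 2.24 ± 1.23 was not called (adjusted p = 0.344). Without replicate 1 of 18 h, the sample at 0 counts, Timp1 was called at 18 and 24 h (adjusted p = 0.0449 and 0.0295).

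Of the proteases, Mmp13 was the one called already at 3 h. Its level was 1.00 and 10.0 CPM at 0 h (4 and 20 counts), 44.2, 55.9 and 67.3 CPM at 3 h, 140, 141 and 211 CPM at 6 h and 253, 256 and 284 CPM at 12 h. It had 142, 166 and 261 CPM at 18 h, 60.9 and 89.0 CPM at 24 h and 346, 570 and 661 CPM at 96 h. No cultured sample overlapped with 0 h, and the 24 h samples lay below all samples of 6, 12, 18 and 96 h. The log2 fold change was 3.48 ± 0.63 at 3 h (adjusted p = 0.00328), 5.72 ± 0.68 at 12 h (adjusted p = 2.58e-05), 3.91 ± 0.66 at 24 h (adjusted p = 0.000981) and 6.71 ± 0.71 at 96 h (adjusted p = 1.27e-05). Without replicate 2 of 0 h these values were 2.51, 4.71, 2.87 and 5.70, and without replicate 3 they were 5.75, 7.99, 6.19 and 8.99, all of them called. With only the times compared fitted, Mmp13 was not called at 3 and 24 h (adjusted p = 0.121 and 0.127). From 18 to 24 h it differed by -1.34 ± 0.52, which was not called (adjusted p = 0.672), and from 24 to 96 h it rose by 2.81 ± 0.56 (adjusted p = 0.0121). This last call was lost without either 24 h sample (adjusted p = 0.159 without replicate 1 and 0.137 without replicate 2). The 3 to 6 h increase of 1.56 ± 0.46 passed (adjusted p = 0.077), but with the replicate number as a block it was 1.53 and did not (adjusted p = 0.11). It was also lost without any single sample of 3, 6 or 24 h, without replicate 2 of 12 h and without replicate 3 of 96 h (adjusted p between 0.102 and 0.263).

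The stromelysins Mmp3 and Mmp10 were near 0 in fresh cells and among the most abundant proteases of the list at 96 h. Mmp3 had 0 and 6 counts at 0 h and 0, 14.8 and 15.3 CPM at 3 h, then 45.7 to 65.9 CPM at 6 h and 47.0 to 54.4 CPM at 12 h. At 18 h, 1 sample was at 0 counts and the others at 28.1 and 35.3 CPM (151 and 145 counts), at 24 h it had 24.8 and 57.5 CPM, and at 96 h it had 617, 700 and 868 CPM. Thus Mmp3 was above both fresh samples in every sample of 6, 12, 24 and 96 h. Log2 fold changes were 5.62 ± 1.76 at 6 h (adjusted p = 0.0579), 5.39 ± 1.75 at 12 h (adjusted p = 0.0515) and 9.25 ± 1.95 at 96 h (adjusted p = 0.00566), on 6 counts at 0 h. At 18 and 24 h Mmp3 was not called (adjusted p = 0.137 and 0.109), but passed with DESeq2 (0.0594 and 0.0267). At 24 h it also passed without the low-count filter (0.0736), on thinned counts (0.0457) and with library-size scaling (0.0799). The calls at 6 and 12 h were lost without replicate 2 of 0 h (log2 fold changes of 4.27 and 4.05), and without replicate 3 of 0 h, the sample with the 6 counts, the values were 11.18 and 10.96, both called. At 96 h Mmp3 stayed called at 7.90 without replicate 2 (adjusted p = 0.0822) and at 14.84 without replicate 3.

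Mmp10 was detected in all samples of a time from 18 h on. At 0 h its samples had 0 and 8 counts, and of the 9 samples of 3, 6 and 12 h, 5 were at 0 and the others at 1.31, 2.27, 11.03 and 18.7 CPM. All 3 samples of 18 h had it, at 24.95, 27.02 and 35.6 CPM, as did both of 24 h at 19.5 and 32.6 CPM. At 96 h it read 1124, 1233 and 1353 CPM, above every other protease of the list in the same sample. Its log2 fold change was 4.53 ± 1.85 at 18 h (adjusted p = 0.131) and 9.94 ± 2.16 at 96 h (adjusted p = 0.00708), the latter being the only call in the reported fit. At 18 h it passed with the isolation date (adjusted p = 0.0989) and on thinned counts (0.0138), and at 24 h on thinned counts (0.0315). Without replicate 2 of 6 h it passed at 18 and 24 h (0.0502 and 0.0899), and without replicate 3 of 6 h at 18 h (0.0875). Without replicate 3 of 0 h the 96 h value was 9.25 (adjusted p = 0.0786), and without replicate 2, the sample with the 8 counts, it was 15.56, and both were called. Between 24 and 96 h the fitted difference was 5.57 ± 1.68 for Mmp10 and 4.15 ± 1.43 for Mmp3, and neither was called (adjusted p = 0.126 and 0.206), though both were when only these times were fitted (adjusted p = 0.00583 and 0.0153). Mmp3 and Mmp10 shared 206 of their 30-base words (11.6% and 12.2% of each), but none within the last 500 bases of the longest transcript, where a 3′-end library takes its tags. At 12 h, Mmp3 had 235 to 352 counts while Mmp10 was at 0 in 2 of the 3 samples.

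Mmp14 and Mmp2, which act together on the cell surface, were the main proteases of the list in fresh HSCs. Mmp14 had 279 and 324 CPM at 0 h, 300, 426 and 503 CPM at 3 h and 279, 379 and 421 CPM at 6 h. It read 71.2, 80.3 and 199 CPM at 12 h, 80.9, 127 and 142 CPM at 18 h, 135 and 264 CPM at 24 h and 245, 291 and 405 CPM at 96 h. The samples of 12, 18 and 24 h lay below both fresh samples, and those of 96 h overlapped them. The log2 fold change was -1.37 ± 0.41 at 12 h (adjusted p = 0.0361) and the same at 18 h (adjusted p = 0.0388), and 0.06 ± 0.42 at 96 h (adjusted p = 1). It fell by 1.62 ± 0.38 between 6 and 12 h (adjusted p = 0.0506). The 12 h call against 0 h was lost without replicate 3 of 0 h or without replicate 2 or 3 of 12 h (log2 fold changes of -1.28, -1.14 and -1.16), and that at 18 h without the same 0 h sample or replicate 2 of 18 h (-1.30 and -1.21). The 6 to 12 h call was lost without replicate 2 or 3 of 6 h or of 12 h (adjusted p between 0.115 and 0.212) and when only these times were fitted (adjusted p = 0.154).

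Mmp2 was not called at any time with all samples in the edgeR test. Its values were 154 and 157 CPM at 0 h, 80.9, 145 and 211 CPM at 3 h, 43.3, 78.9 and 97.9 CPM at 6 h and 0, 15.9 and 26.9 CPM at 12 h. At 18 h, 2 samples were at 0 and the other at 27.02 CPM (154 counts), the 24 h samples had 19.4 and 43.8 CPM, and those of 96 h had 50.05, 54.8 and 79.8 CPM. All samples from 6 h on lay below both fresh samples. The fitted log2 fold change at 18 h was -4.09 ± 1.60 (adjusted p = 0.114), and it passed with DESeq2 (adjusted p = 0.0407), without the low-count filter (0.0836), on thinned counts (0.0383) and without replicate 2 of 12 h (0.0595). Without replicate 2 of 18 h, the one sample of that time with counts, it was -12.56 (adjusted p = 0.00189). At 12 h the value of -3.45 passed with DESeq2 (adjusted p = 0.0877), on thinned counts (0.0698) and without replicate 2 of 18 h (0.0429). Mmp2 also passed at 24 and 96 h when only those samples and the fresh ones were fitted (adjusted p = 0.0689 and 0.0329). Mmp19 had no counts before 96 h, when its samples had 0, 154 and 225 counts, or 0, 29.6 and 37.9 CPM, and was not called against 0 h (adjusted p = 0.262).

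The directions were also read within each isolation date, as the log2 ratio of the mean CPM of the date's samples to its single 0 h sample, with no test. For the date of replicate 2 and that of replicates 1 and 3, the ratio at 12 h was 8.27 and 3.75 for Timp3, -3.03 and -2.58 for Timp2, 7.995 and 4.74 for Mmp13 and -1.97 and -1.22 for Mmp14. At 96 h it was 4.65 and 3.98 for Timp1, 6.41 and 2.08 for Timp3 and 9.37 and 5.51 for Mmp13. Both dates thus gave these genes the same direction, with a higher ratio for Timp3 and Mmp13 in the date whose 0 h sample was low for them. The lowest Timp3 levels of 12, 18 and 24 h were all those of replicate 1.

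The make-up of the 3 Timps and of the 6 Mmps was then described by the share of each gene in their summed CPM, with no test. Other Mmps were not in these sums, such as Mmp11 and Mmp17 with means of 58.8 and 40.0 CPM at 0 h. Timp2 made up 97.7% and 73.0% of the Timp sum in the fresh samples (replicates 2 and 3) and 64.6% to 70.4% at 3 h. Timp3 then took over, with 76.6% to 79.3% at 6 h, 94.4% to 97.5% at 12 h and 93.1% to 94.0% at 18 h. At 96 h the sum was split into 49.2% ± 5.71 (SD, n = 3) Timp3, 44.3% ± 4.35 Timp2 and 6.47% ± 1.46 Timp1. Mmp14 led the Mmp sum at 0 h with 64.8% ± 1.09 (n = 2), beside 33.5% ± 2.47 of Mmp2. Mmp14 also led at 3 and 6 h, with means of 65.7% and 54.3%. Mmp13 led at 12 h with 60.5% ± 11.3 (n = 3) and at 18 h with a mean of 51.3%, though replicate 3 of 18 h had 42.1% of each. At 24 h Mmp14 led again with 52.2% ± 7.49 (n = 2). At 96 h, Mmp10 made up 42.9% ± 1.27, Mmp3 25.1% ± 2.11, Mmp13 18.0% ± 4.36, Mmp14 11.2% ± 4.22 and Mmp2 2.12% ± 0.42.

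The sums of the 3 Timps and of the 6 Mmps were set side by side. The Timp sum was 1108 and 1335 CPM in the fresh samples and 3757 to 6621 CPM at 18 h, while the Mmp sum was 436 and 495 CPM at first and 337 to 396 CPM at 18 h. The log2 ratio of the Timp to the Mmp sum was 1.39 ± 0.06 (SD, n = 2) at 0 h, 1.91 ± 0.33 (n = 3) at 3 h and 1.88 ± 0.09 at 6 h, then 3.504 ± 0.70 at 12 h, 3.87 ± 0.47 at 18 h and 3.32 ± 0.96 (n = 2) at 24 h. At 96 h it was 0.09 ± 0.14 (n = 3), when the Mmp sum had reached 2546 to 3153 CPM and the Timp sum 2937 to 3241 CPM. The lowest ratio of the samples at 12, 18 and 24 h, 2.64, was above the highest of the earlier ones, 2.29, and the 96 h samples lay below all others. These are ratios of counts and say nothing of protein or activity.

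**Figure D3:**
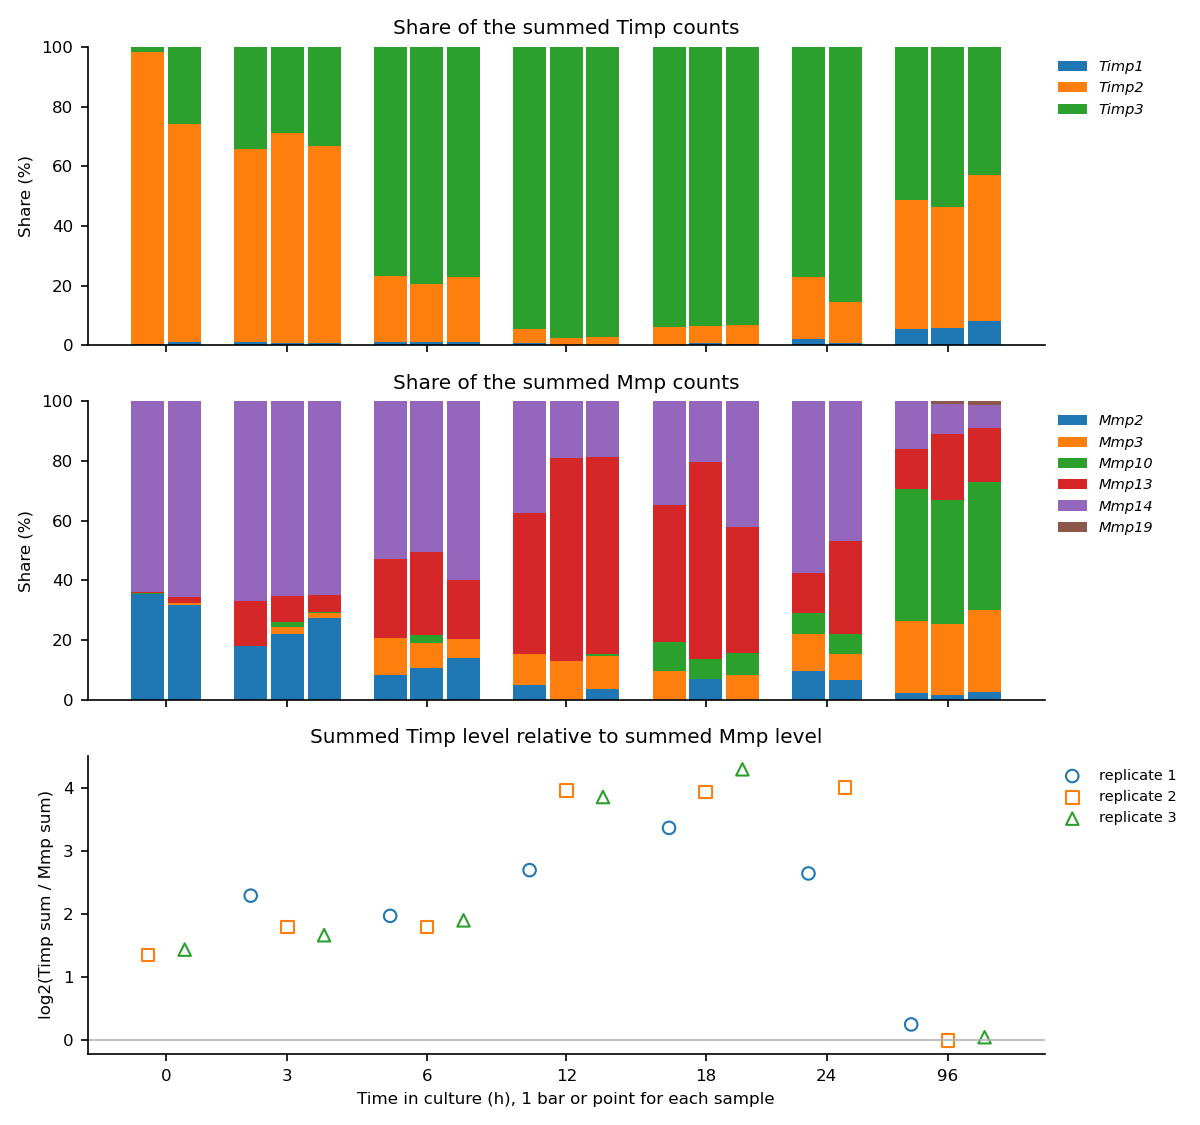
Share in percent of each gene in the summed CPM of the 3 Timps (top) and of the 6 Mmps (middle) in every sample, 1 bar a sample, and the log2 ratio of both sums (bottom, symbols for the replicate numbers), by time in culture in hours. Timp3 fills over 93% of the top bars at 12 and 18 h, and the ratio falls from a mean of 3.87 at 18 h to 0.09 at 96 h.

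Of 18 other Mmp and Timp genes, 8 had any count and 4 passed the filter (Mmp11, Mmp12, Mmp15 and Mmp17). Mmp9, the other gelatinase, was at 0 counts in all 19 samples, as were the collagenase Mmp8 and the matrilysin Mmp7. Mmp11 had 56.9 and 60.8 CPM at 0 h and no counts in any of the 9 samples of 3, 6 and 12 h, and was called lower at 12 h alone (adjusted p = 0.0852), a call lost with the replicate block (adjusted p = 0.138), without any single sample of 0 or 12 h (adjusted p between 0.154 and 0.178) and without replicate 1 or 3 of 96 h (0.114 and 0.11). Mmp17, a membrane-type member, had 38.4 and 41.7 CPM at 0 h and none at 18 h, where it was called lower (adjusted p = 0.0022).

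Of 13 genes listed as regulators of proteases, 9 were tested. Among these, 1 was higher and 6 were lower at one time or more of the 6. Over all genes tested, 12.8% were higher at some time and 14.7% lower. This list and those below were also chosen with earlier results of these data known. Cd44, a hyaluronan receptor that docks proteases at the cell surface, went up from 24.5 ± 7.30 CPM (SD, 2 samples) in fresh cells to 459 ± 72.2 CPM (3 samples) at 18 h (log2 fold change 4.24 ± 0.42 SE, adjusted p = 3.42e-06) and was called at all 6 times. Reck, a membrane-bound inhibitor of several Mmps, fell from 89.9 ± 29.2 CPM to 6.55 ± 1.53 CPM at 96 h (-3.78 ± 0.81, adjusted p = 0.00635). Lrp1, the receptor that clears proteases and TIMPs from outside the cell, fell from 1500 ± 6.24 CPM to 240 ± 44.3 CPM at 24 h (n = 2; -2.64 ± 0.28, adjusted p = 1.45e-05). Pcsk6, a proprotein convertase, was lowest at 18 h (-4.19 ± 0.86, adjusted p = 0.00352), a call lost when only the times compared were fitted (-4.23, adjusted p = 0.122). Cst3, the cathepsin inhibitor cystatin C, was lowest at 24 h (-2.11 ± 0.28, adjusted p = 0.000135). Bsg, called at 6 h, was not called without replicate 2 of 0 h (adjusted p = 0.134). Pcsk5 was called at 18 h, but not without replicate 2 of 0 h (adjusted p = 0.106), and at 24 h, where 12 of the 19 fits that left out 1 sample lost it (adjusted p up to 0.407).

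Of 8 ADAM proteases, some of them targets of Timp3, 7 were tested. Among these, 2 were called higher at one time or more (Adam9 and Adam19, beside 12.8% of all genes) and 1 lower (Adam10, beside 14.7%). Adam9 rose to 250 CPM at 96 h from 30.5 CPM (log2 fold change 3.02 ± 0.79, adjusted p = 0.0231), Adam19 was 1.87 ± 0.51 higher at 18 h (adjusted p = 0.0229), and Adam10 fell by 2.38 ± 0.58 on the log2 scale at 6 h (adjusted p = 0.0134). The call of Adam9 was lost without replicate 3 of 0 h (adjusted p = 0.208), and that of Adam19 without either 0 h sample (adjusted p = 0.126 without replicate 3 and 0.173 without replicate 2). Of 10 genes listed for the uptake and breakdown of collagen, 9 were tested. Among these, only the collagen-cutting cathepsin Ctsk was called higher (2.29 ± 0.46 at 12 h, adjusted p = 0.00277). The genes called lower were 6 (Ctsd, Ctsl, Dpp4, Lgmn, Mrc1 and Mrc2), beside the same shares of all genes. Ctsd, called at 18 h, was not called without either sample of 0 h or without replicate 2 or 3 of 18 h (adjusted p up to 0.126). Ctsl was lost at 24 h without replicate 2 of 0 or 24 h (adjusted p up to 0.246) and at 96 h without replicate 2 of 0 h or replicate 3 of 96 h (up to 0.162). Mrc1 is also carried by Kupffer and endothelial cells, whose summed markers were also lower in late samples, and their part in it was not tested.

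The collagens that these proteases cut did not share a course. Col3a1 fell from 1999 ± 95.5 CPM to 83.0 ± 21.6 CPM at 18 h (-4.59 ± 0.38, adjusted p = 6.73e-07), while Col1a1 was lower at 12 h (-2.02 ± 0.36, adjusted p = 0.00104) and higher at 96 h (2.22 ± 0.40, adjusted p = 0.0015), with values of -1.12 and 3.13 without replicate 3 of 0 h and -2.57 and 1.65 without replicate 2, all called. The basement membrane collagen Col4a1 was higher at 12 h by 1.68 ± 0.18 (adjusted p = 1.05e-05).

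**Figure D4:**
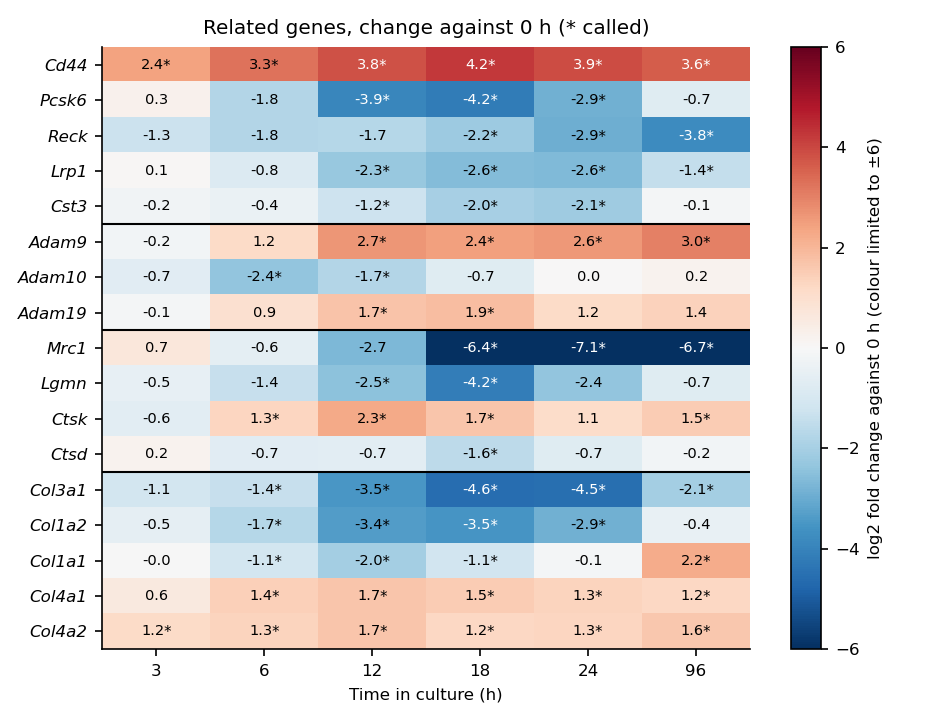
Fitted log2 fold change against 0 h at 6 culture times (columns, hours) of related genes (rows) in blocks from top to bottom: regulators, ADAM proteases, collagen uptake and breakdown, and collagens. Asterisks mark the called changes and colours are limited to 6 in either direction, with Cd44 at 4.24 at 18 h and Col3a1 at -4.59.

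For each gene, the genes with the closest course over the 19 samples were listed by Pearson's r of log2 CPM among the 8581 genes averaging 10 CPM or more, as a description of samples that share times and libraries. Closest to Timp3 were Plaur, the urokinase receptor (r = 0.969), Ctps and Tfrc, and closest to Timp2 were Stim1 (r = 0.968), Cd81 and Myo18a. Mmp13 was nearest to Slco4a1 (r = 0.948), Bdnf and Ereg, and Mmp10 to Tubb5 (r = 0.913), Psmd5 and Eno1. Mmp14 was nearest to Phactr1 (r = 0.909), Casp12 and Tcn2, Mmp2 to Trafd1 (r = 0.891), Thra and Gab1, and Mmp3 to Hsp25-ps1 (r = 0.88), Wdr1 and Zfp410. For Timp1 the closest was Anxa6 (r = 0.851), and for Mmp19, with counts in 2 samples, Tmem119 (r = 0.787). Within the list, Timp3 and Mmp13 had r = 0.819, Timp2 and Mmp14 r = 0.764, and Timp2 and Timp3 r = -0.606.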

How the data were processed

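RNASeq libraries (QuantSeq 3′ FWD, from total RNA) were made by the authors from 19 HSC samples. Per the study's methods, trimmed single-end reads were aligned by STAR (GRCm38.p6), and StringTie then assembled genes and transcripts; the counting tool, strand setting and annotation release are not given in the sources used here. The authors deposited raw counts, whole numbers per gene and sample. Libraries carry no molecular identifiers, so floors (3 counts) cover counting error only. Genes were matched to symbols in GENCODE M21 (55141 of 55487 rows), and 23696 had a count.

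Counts were filtered with filterByExpr (15138 genes left, all 9 described genes included), scaled by TMM (factors 0.883 to 1.134) and fitted over all 19 samples without covariates in edgeR 4.0.16 (R 4.3.3, limma 3.58.1) with the quasi-likelihood F test. Calls needed a Benjamini-Hochberg adjusted p below 0.1 over all genes tested and a fold above 2. DESeq2 1.42.0, the package of the study's methods, was an alternative, as were library-size scaling, no filter, thinned counts, the replicate number as a block, the isolation date, only the times compared, and leaving out each sample. The edgeR step was tested on simulated data. Standard errors of log2 fold changes were worked back from the test, as the absolute log2 fold change over the square root of F. They can be smaller than the shift from leaving out 1 sample of 0 h, as for Mmp3 and Mmp10 at 96 h. Plots were drawn with matplotlib 3.10.9 (Python 3.11.15, numpy 2.4.6, pandas 2.3.3).

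Per the labels, same-numbered samples share an isolation date, which numbers 1 and 3 also share. Deviations from the time means correlated at 0.014 over 51 same-numbered pairs of samples from different times, and -0.007 over 103 differently numbered ones. Deviations sum to 0 within a time, so the second value is tied to the first. The 103 pairs include those of numbers 1 and 3, so these values cannot show whether the date mattered. Samples of a time differed by 20.7 or more chi-square units per degree of freedom, so none was a repeat deposit. Each sample counted once; the technical repeats behind it are not separate in the table.

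The 9 genes and the gene lists were chosen with earlier results of these data known. Named from each list were the genes called at any time against 0 h, at most 6 by fold with a mean of 10 CPM or more at a time; for each of the 9 genes, the 3 closest in course were taken. Motifs were exact matches in RefSeq promoters.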

Additional observations from a re-analysis of the deposited data

How the results depend on the processing

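The number of the 9 genes called against 0 h was within 1.5 times the reported one under every alternative run at 6, 12, 18 and 96 h. At 3 h it was 1, and 2 without the low-count filter, 2 with DESeq2 and 0 when only the times compared were fitted. At 24 h it was 2, and 4 on thinned counts and 1 with only the times compared. With only the times compared, it went from 1 to 0 for 18 h against 12 h and from 2 to 5 for 96 h against 24 h, where thinned counts gave 4, adding Mmp3 and Mmp10 (adjusted p = 0.0856 and 0.0162). With the replicate number as a block, it went from 2 to 1 for 6 h against 3 h and changed no other count of the 9 genes by over 1.5 times. Genes of the wider lists called at 3 h went from 2 to 4 with DESeq2 and with only the times compared, and at 6 h from 9 to 14 with DESeq2. Leaving out each sample in turn gave 1 to 2 of the 9 genes at 3 h, 2 to 4 at 6 h, 4 to 6 at 12 h, 3 to 5 at 18 h, 2 to 3 at 24 h and 4 to 5 at 96 h. Between successive times it gave 1 to 3, 1 to 3, 0 to 1, 0 to 1 and 0 to 3, and 6 to 9 for the whole course. For the wider lists it gave 1 to 4 at 3 h, 6 to 11 at 6 h, 12 to 18 at 12 h, 14 to 21 at 18 h, 6 to 15 at 24 h and 10 to 14 at 96 h. The log2 ratio of the Timp to the Mmp sum ranged from 1.35 to 1.43 at 0 h, 1.73 to 2.04 at 3 h, 1.84 to 1.93 at 6 h, 3.28 to 3.91 at 12 h, 3.65 to 4.12 at 18 h, 2.64 to 4.01 at 24 h and 0.01 to 0.14 at 96 h.

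Signs turned for differences that were not called. Mmp10 at 12 h (-0.49) was 0.19 with the replicate block, 0.22 with the date, and 3.84 on thinned counts, and ran from -5.56 to 5.15 with each sample left out. Its values at 3 and 6 h ranged from -0.66 to 7.42 and from -5.61 to 8.02, low without replicate 2 of that time and high without that of 0 h. Mmp14 at 96 h (0.06) was -0.067 with the block, -0.0029 with the date and -0.0915 with DESeq2, and from -0.17 (without replicate 1 of 96 h) to 0.21 with each sample left out, being -0.05 without replicate 2 of 0 h. Mmp2 at 3 h (-0.09) ranged from -0.43 to 0.23, the latter without replicate 1 of 3 h. The cause was not tested. Timp3 called with all samples was not called when only the times compared were fitted at 6, 24 and 96 h (adjusted p = 0.145, 0.164 and 0.15), nor was Mmp13 at 3 and 24 h (0.121 and 0.127) or Mmp14 at 12 h (0.138), fits with fewer samples. Library-size scaling shifted all genes by up to 0.28 on the log2 scale (24 h) and moved the share of higher calls among all genes from 59.4% to 71.5% at 24 h, from 48.2% to 58.2% at 18 h, from 55.7% to 65.8% for 6 h against 3 h, from 32.4% to 45.5% for 18 h against 12 h and from 50.4% to 36.9% for 96 h against 24 h; it lost no call of the 9 genes and added Mmp3 at 24 h (adjusted p = 0.0799). Low counts limit Mmp10 before 18 h and Mmp3 at 0 h, with at most 94 and 6 counts in a sample. Mmp19 had counts in 2 samples of 96 h alone. The part of depth in this was not tested.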
